A study of Mus musculus with 8 samples.

Results

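The regions described here are the BMAL1 ChIP-seq peaks that lie at gene starts in HC11 cells. These are mouse mammary epithelial cells grown as a line, and they produce milk proteins once given lactogenic hormones. A peak was a member when its centre lay at most 1000 bp from the nearest start site of a curated RefSeq transcript of the mouse genome GRCm38. The rule used position only. It took 2311 peaks in the 4 lists, which were 184 of 13683 in DIFF1, 2002 of 185417 in DIFF2, 87 of 6534 in UNDIFF6 and 38 of 5475 in UNDIFF8. The differentiated (DIFF) and undifferentiated (UNDIFF) cultures are named by the numbers of their labels. EGF was withheld from all of them for 48 h, with 10% calf serum and 5 µg/mL insulin kept in the medium. Only the DIFF cultures were then given 5 µg/mL prolactin, 5 µg/mL insulin and 0.1 µM dexamethasone, for 96 h. Formaldehyde at 1% was used to fix chromatin, which was sheared and precipitated with an antibody to BMAL1 in 4 independent experiments, each with an input library of its own. No circadian time course of binding was sampled, and the lists come from a single cell line.

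BMAL1 is a basic helix-loop-helix transcription factor of the core circadian clock. Together with CLOCK or NPAS2 it binds E-boxes, of which CACGTG is the canonical form, and activates *Per* and *Cry* genes, whose products then inhibit the pair. In the liver of mice, BMAL1 is known to bind many promoters of its target genes close to their start sites. Mammalian promoters are often rich in GC and CpG and poor in interspersed repeats.

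The lists differ in scale, and this touches each count below. DIFF2 held 2002 of the 2311 member peaks. Its peaks were 336 bp wide, against 214 bp in DIFF1, 194 bp in UNDIFF6 and 228 bp in UNDIFF8. The ChIP and input pair of DIFF2 was scaled to 35.3 M tags, those of DIFF1, UNDIFF6 and UNDIFF8 to 57.5 M, 80.4 M and 77.2 M tags. By the study's methods and its read counts by sample, the DIFF2 pair was sequenced far deeper and 1 of 5 subsets of its reads was used. Shares and counts are therefore given by list, and for counts across lists also without DIFF2.

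CACGTG, the canonical E-box, was in 2.01% of all peaks in DIFF1, 2.65% in DIFF2, 2.13% in UNDIFF6 and 1.46% in UNDIFF8. Windows of the same widths around all start sites held it in 3.49%, 5.40%, 3.16% and 3.71%. Members that hold it were fewer than in these windows by share. They numbered 6 in DIFF1 (3.26% of members), 76 in DIFF2 (3.80%), 2 in UNDIFF6 (2.30%) and 1 in UNDIFF8 (2.63%). Each is shown for the 3 smaller lists, with 25 bases on both sides of the hexamer, read 5′ to 3′ on the strand of the nearest gene from the reference genome GRCm38. The capitals mark CACGTG.
*A630001O12Rik* (DIFF1, chr8:126848174-126848229, plus strand): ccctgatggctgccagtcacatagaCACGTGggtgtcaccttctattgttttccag
*Crx* (DIFF1, chr7:15880892-15880947, minus strand): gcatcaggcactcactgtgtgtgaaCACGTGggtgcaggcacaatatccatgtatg
*Gm41230* (DIFF1, chr14:99521133-99521188, plus strand): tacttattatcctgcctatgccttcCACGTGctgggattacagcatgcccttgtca
*Gzmb* (DIFF1, chr14:56262688-56262743, minus strand): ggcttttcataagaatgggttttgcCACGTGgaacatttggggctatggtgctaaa
*Tmem144* (DIFF1, chr3:79853584-79853639, minus strand): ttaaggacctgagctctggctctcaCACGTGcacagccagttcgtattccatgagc
*Unc13b* (DIFF1, chr4:43058695-43058750, plus strand): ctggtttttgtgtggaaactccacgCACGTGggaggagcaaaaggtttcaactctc
*Mei1* (UNDIFF6, chr15:82082092-82082147, plus strand): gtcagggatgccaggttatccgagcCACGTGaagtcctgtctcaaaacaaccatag
*Sucla2* (UNDIFF6, chr14:73552181-73552236, plus strand): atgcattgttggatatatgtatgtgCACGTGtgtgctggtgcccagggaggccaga
*Raet1e* (UNDIFF8, chr10:22157737-22157792, plus strand): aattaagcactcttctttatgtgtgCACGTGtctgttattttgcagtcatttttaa

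All 9 of these hexamers lay upstream of the start site, between 231 bp at *Unc13b* and 964 bp at *Crx*. Of the 11 hexamers in the 10 DIFF2 peaks named below, 6 lay downstream. At *Gzmb*, which encodes the cytotoxic protease granzyme B, the hexamer lay 12 bp from the peak's centre, and at *Raet1e*, an NKG2D ligand gene, 8 bp. At *Mei1*, a gene of meiotic recombination, it lay 5 bp from the centre on the other side. At *Crx*, a photoreceptor homeobox gene, it lay 102 bp away, near the edge of the peak. The fold over input was 3.46 at *Gzmb*, 4.72 at *Unc13b*, a gene of synaptic vesicle priming, and 31.81 at *Gm41230*. The fold of *Gm41230* rested on 0.5 input tags. *Sucla2*, a subunit of the mitochondrial succinyl-CoA ligase, had a fold of 3.38 in UNDIFF6, and *Raet1e* had 2.74 in UNDIFF8. Of the 56 bases shown, 48 were soft-masked at *Sucla2* and 36 at *Mei1*, whereas none were at *Unc13b*, *Gzmb*, *A630001O12Rik* and *Raet1e*. Soft-masking is the lower case by which the reference marks repeats. None of these 9 peaks overlapped a peak of another list.

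In DIFF2 the CACGTG members with the highest findPeaks scores were those of *Coro1c*, *Qrfpr*, *Flacc1*, *Smok3a*, *Pcp2*, *Prrt4*, *Sim2*, *B3gat2*, *Map10* and *Cr2*. A peak's score is the tag count that the caller gave it. The flanks of 2 are shown because they differ in kind, the first being GC-rich sequence and the second a simple repeat.
*Coro1c* (DIFF2, chr5:113908342-113908397, minus strand): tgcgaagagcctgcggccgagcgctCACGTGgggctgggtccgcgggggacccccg
*Qrfpr* (DIFF2, chr3:36222873-36222928, minus strand): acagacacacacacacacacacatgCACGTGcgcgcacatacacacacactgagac
The *Coro1c* peak, 211 bp downstream of the start of this actin-binding coronin gene, had a GC content of 78.3% and a fold of 2.25. The *Qrfpr* peak, 647 bp upstream of this neuropeptide receptor gene, had a GC content of 51.6% and a fold of 3.06, with all 56 printed bases soft-masked. Of the 10 peaks, 6 had a soft-masked centre.

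Peaks lay at gene starts less often than the sequence there would give by its length. The sequence within 1 kb of a start site made up 2.04% of the genome. The share of peaks in it was 1.34% in DIFF1 (95% Wilson interval 1.16 to 1.55), 1.08% in DIFF2 (1.03 to 1.13), 1.33% in UNDIFF6 (1.08 to 1.64) and 0.694% in UNDIFF8 (0.506 to 0.951). The intervals cover counting error only. Divided by the share of the genome, these were 0.659, 0.529, 0.653 and 0.340, so all 4 ratios were under 1. DIFF lists averaged 1.21 ± 0.187% and UNDIFF lists 1.01 ± 0.451% (SD, n = 2 lists each). The difference of 0.199 percentage points was within the spread of the lists (exact permutation test, two-sided, p = 0.667). With 2 lists against 2 this test cannot go below 0.333.

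The density of peaks was low close to the start site and rose outwards. In DIFF1 it was 3.17 peaks per Mb within 250 bp, 3.54 from 500 to 1000 bp and 5.07 from 1 to 2 kb. In DIFF2 the same bands held 19.4, 50.0 and 63.8 peaks per Mb. UNDIFF6 had 1.31, 1.88 and 2.13 peaks per Mb, and UNDIFF8 had 0.483, 0.845 and 1.73. Relative to sequence beyond 10 kb, the density within 1 kb was 0.653 in DIFF1, 0.527 in DIFF2, 0.639 in UNDIFF6 and 0.323 in UNDIFF8. Outside soft-masked sequence these ratios were 0.578, 0.813, 0.561 and 0.268. The dip in DIFF2 was thus shallower outside repeats, while those of the other 3 lists were not.

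**Figure D1:**
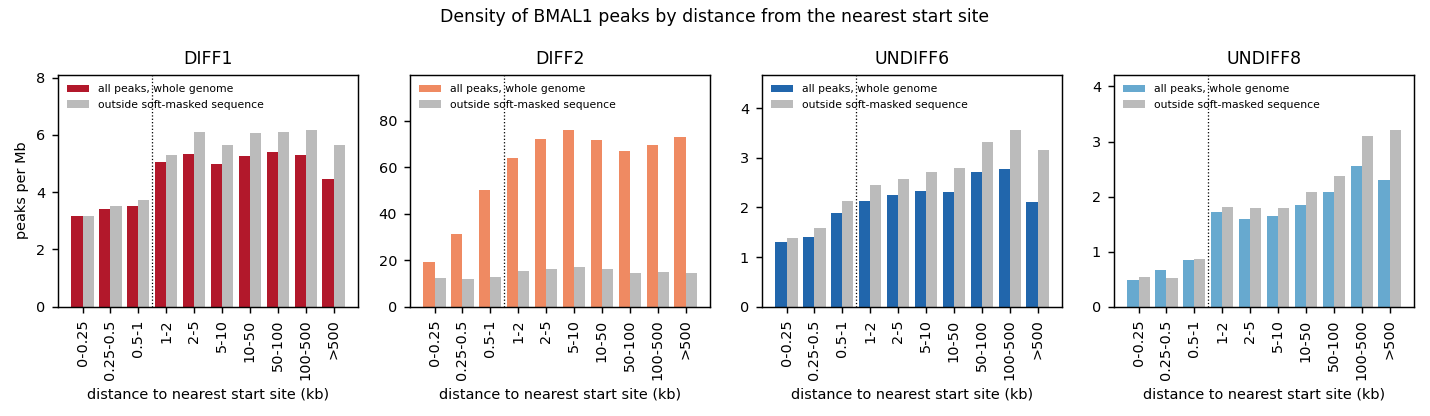
Peaks per Mb of genome (y axis, a separate scale in each panel) by distance from the nearest start site in kb (x axis), for DIFF1, DIFF2, UNDIFF6 and UNDIFF8. Coloured bars are all peaks over the whole genome, grey bars are peaks and sequence outside soft-masked repeats, and the dotted line is the limit of 1 kb. The first 3 bands are the lowest in each list for all peaks, with 19.4 peaks per Mb within 250 bp in DIFF2 against 76.1 at 5 to 10 kb.

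Within the limit, member peaks lay on both sides of the start site. Upstream were 95 of 184 in DIFF1 (51.6%, interval 44.5 to 58.7), 1239 of 2002 in DIFF2 (61.9%, 59.7 to 64.0), 48 of 87 in UNDIFF6 (55.2%, 44.7 to 65.2) and 21 of 38 in UNDIFF8 (55.3%, 39.7 to 69.9). Only the interval of DIFF2 lay wholly above an even split. Of the 558 DIFF2 members with a centre outside soft-masked sequence, 52.0% lay upstream, so the excess lay mainly in soft-masked members. The median distance from the start site was 502 bp in DIFF1, 638 bp in DIFF2, 552 bp in UNDIFF6 and 606 bp in UNDIFF8. Peaks within 100 bp numbered 13, 99, 11 and 3 in the same lists. Start sites of 2 or more genes lay within 1 kb of 99 members, 83 of them in DIFF2, and each such peak was counted for the nearest gene only.

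**Figure D2:**
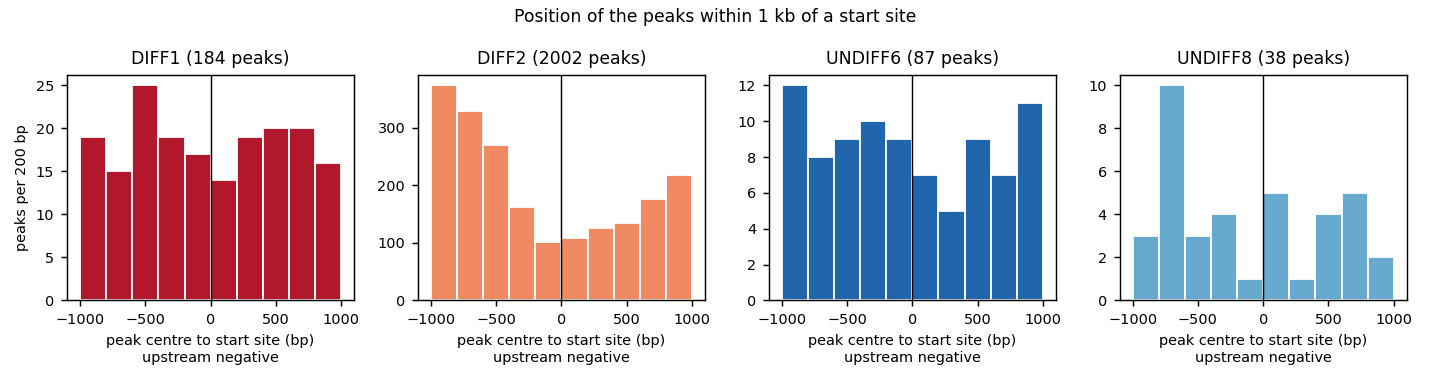
Number of member peaks per 200 bp (y axis, a separate scale in each panel) by the distance of the peak's centre from the nearest start site in bp (x axis, upstream negative, the vertical line is the start site). The 1239 upstream peaks of DIFF2 pile up towards 1000 bp, whereas the 184 peaks of DIFF1 are spread over the range.

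Most members fell outside exons. In DIFF1 the centre lay outside curated transcripts in 71 peaks, in an intron in 77, in a coding exon in 20, in an untranslated exon in 10 and in an exon of a non-coding RNA in 6. In DIFF2 the counts were 1008, 814, 56, 96 and 28. In UNDIFF6 they were 43, 31, 5, 6 and 2, and in UNDIFF8 18, 12, 6, 2 and 0. Coding exons held 10.9% of members in DIFF1 and 15.8% in UNDIFF8, against 2.8% in DIFF2 and 5.75% in UNDIFF6. The higher and the lower shares thus each came from a DIFF and an UNDIFF list. The 6 of UNDIFF8 were at *4931408C20Rik* and the olfactory and vomeronasal receptor genes *Olfr209*, *Olfr450*, *Vmn1r15*, *Vmn1r30* and *Vmn1r54*. The 20 of DIFF1 also included such receptor genes, so these shares are not separate from the receptor counts below.

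The sequence under the members was set beside that of the other peaks of the same list and beside windows of the same width, placed every 100 bp from 1000 bp upstream to 1000 bp downstream of all 31601 curated start positions. Mean GC content was 47.8 ± 5.55% at members and 44.5 ± 5.37% at other peaks in DIFF1, and 48.2 ± 9.64% and 43.6 ± 4.63% in DIFF2. It was 46.1 ± 6.02% and 43.2 ± 4.39% in UNDIFF6, and 42.4 ± 3.71% and 42.4 ± 3.78% in UNDIFF8 (SD over peaks). The mean difference over the lists was 2.68 percentage points (exact sign-flip permutation test over 4 lists, two-sided, p = 0.25, smallest possible 0.13). The start site windows had a GC content of 50.6% for each of the 4 widths. The members were thus below the windows in all 4 lists, by most in UNDIFF8. The windows were spaced evenly and were not matched to the members by position or repeats, here or for the motifs below. Beyond 500 bp lay 50% of members in DIFF1, 65.0% in DIFF2, 56.3% in UNDIFF6 and 57.9% in UNDIFF8.

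Repeats set the lists apart. The centre was soft-masked at 14.1% of members and 26.8% of other peaks in DIFF1, at 72.1% and 86.2% in DIFF2, at 8.05% and 21.6% in UNDIFF6 and at 18.4% and 26.4% in UNDIFF8. The members were lower in 4 of 4 lists, with a mean difference of -12.1 percentage points (p = 0.13, exact sign-flip permutation test, the smallest it can give). Of the start site windows, 16.3% had a soft-masked centre. DIFF1 and UNDIFF8 members were near that level, UNDIFF6 members under it, and the DIFF2 members were far above it.

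CACGTG was held by 3.26% of members and 1.99% of other peaks in DIFF1, by 3.80% and 2.64% in DIFF2, by 2.30% and 2.13% in UNDIFF6 and by 2.63% and 1.45% in UNDIFF8. Over all peaks of these lists the shares were 2.01%, 2.65%, 2.13% and 1.46%. The members were higher in 4 of 4 lists, by 0.944 ± 0.516 percentage points (SD, n = 4 lists, p = 0.13 by the exact sign-flip permutation test, the smallest it can give, 0.313 after Benjamini-Hochberg adjustment over 5 motifs). With 6, 2 and 1 such members, the intervals of the 3 small lists were wide, for instance 1.5 to 6.93% in DIFF1. The hexamer was present in 3.49% of start site windows of the DIFF1 width, 5.40% of those of the DIFF2 width, 3.16% for UNDIFF6 and 3.71% for UNDIFF8. All 4 member shares were below these, and the interval of DIFF2 (3.04 to 4.73%) did not reach its window share. Of the RefSeq promoters of 300 bp, 7.15% held CACGTG. At a fold over input of at least 4, the mean difference between members and other peaks was -0.269 percentage points, and so of the opposite sign. It was 0.0372 percentage points at a limit of 2000 bp, 0.211 at 500 bp and 0.323 with the same number of peaks in each list.

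**Figure D3:**
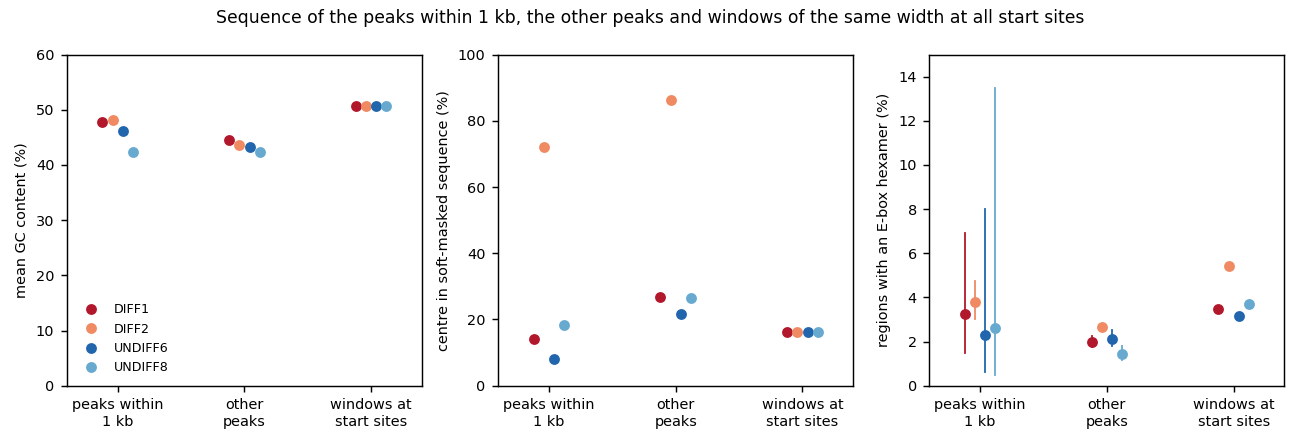
Mean GC content (left), share of regions whose centre is soft-masked (middle) and share of regions with the CACGTG E-box (right), in percent, for member peaks, the other peaks of the same list and windows of the same width at all start sites. Points are lists and bars in the right panel are 95% Wilson intervals. In the middle panel DIFF2 stands apart, with 72.1% of its members soft-masked against 16.3% of windows.

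Another 4 motifs were searched on both strands. GGGCGG, the core of the GC box bound by SP1, was in 3.26% of members and 1.21% of other peaks in DIFF1, in 13.5% and 2.37% in DIFF2, in 5.75% and 0.605% in UNDIFF6 and in 0% and 0.625% in UNDIFF8, where 0 of 38 allows a share of up to 9.18% by the Wilson interval. Windows of the same width held it in 16.6%, 22.8%, 15.5% and 17.4%, and all 4 member shares were lower. CCAAT was less frequent at members than at other peaks in 4 of 4 lists, with a mean difference of -8.07 percentage points (exact sign-flip permutation test, p = 0.13, adjusted 0.313). CACGTT, a variant E-box, was higher at members by 1.04 percentage points on average (exact sign-flip permutation test, p = 0.375, adjusted 0.469). TATAAA differed by -0.0933 percentage points on average (exact sign-flip permutation test, p = 1). The general E-box CANNTG was in 62.0% of members and 72.7% of other peaks in DIFF1, in 80.4% and 86.3% in DIFF2, in 62.1% and 70.3% in UNDIFF6 and in 84.2% and 75.2% in UNDIFF8. Windows held it in 62.2%, 77.7%, 58.7% and 64.5%.

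The genes at the peaks were mostly different from list to list. Members were nearest to 182 genes in DIFF1, 1944 in DIFF2, 87 in UNDIFF6 and 37 in UNDIFF8, or 0.695%, 7.43%, 0.332% and 0.141% of the 26180 curated genes. In all they were 2221 genes, of which 28 had a member in 2 or more lists, 1 in 3 lists and 0 in all 4. Without DIFF2 the count in 2 or more lists was 4, namely *Olfr209*, *Gm5886*, *Map2* and *Snord89*. Of the DIFF1 genes, 6.59% also had a member in DIFF2 (12 genes, interval 3.81 to 11.2), near the 7.43% of all genes, and these were 0.617% of the DIFF2 genes. Of the UNDIFF6 genes 10.3% had a DIFF2 member (9 genes, 5.54 to 18.5) and of the UNDIFF8 genes 8.11% (3 genes, 2.8 to 21.3), and both intervals held 7.43%. DIFF1 and UNDIFF8 shared 3 genes, which were 1.65% of the DIFF1 genes (0.562 to 4.73) against the 0.141% of all genes with a UNDIFF8 member, and 8.11% of the UNDIFF8 genes. UNDIFF6 and UNDIFF8 shared 2 genes, *Olfr209* and *Gm5886*, which were 2.30% and 5.41% of their genes. Of the 28 genes, 12 were in both DIFF lists and neither UNDIFF list, and 1 was in both UNDIFF lists and neither DIFF list.

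*Olfr209*, an olfactory receptor gene on chromosome 16, was the gene with a member in 3 lists. Its DIFF1 peak lay 86 bp downstream of the start site, with a normalized tag count, which the caller scales to a common library size, of 5.42, a fold of 2.97 and 10.5 input tags. Its UNDIFF6 peak lay 409 bp downstream, with 3.03 normalized tags, a fold of 4.06 and 6 input tags. Its UNDIFF8 peak lay 456 bp downstream, with 3.7 normalized tags, a fold of 7.37 and 3.9 input tags. The UNDIFF peaks overlapped each other and the DIFF1 peak overlapped neither. All 3 centres lay in the coding exon. Olfactory receptors form a large family of similar genes, and the sources used here do not state how reads with several matches were treated.

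A shared gene was rarely a shared site. Only 14 members overlapped a peak of another list by at least 1 bp, in 8 pairs of peaks. They were 2 of 184 in DIFF1 (1.09%, interval 0.299 to 3.88, against 6.32% of all DIFF1 peaks), 5 of 2002 in DIFF2 (0.250%, 0.107 to 0.583, against 0.863%), 3 of 87 in UNDIFF6 (3.45%, 1.18 to 9.65, against 7.3%) and 4 of 38 in UNDIFF8 (10.5%, 4.17 to 24.1, against 11.1%). Members overlapped other lists less often than all peaks did in DIFF1 and DIFF2 by their counting intervals. In the other lists the intervals held the share of all peaks. In 6 pairs both peaks were members of the same gene. The stretch common to both peaks is printed for these 6, on the strand of the gene, because these are the start sites at which 2 experiments marked the same bases. The capitals mark CANNTG, and none of the stretches holds CACGTG.
*Olfr209* (UNDIFF6 and UNDIFF8, chr16:59361710-59361874, minus strand): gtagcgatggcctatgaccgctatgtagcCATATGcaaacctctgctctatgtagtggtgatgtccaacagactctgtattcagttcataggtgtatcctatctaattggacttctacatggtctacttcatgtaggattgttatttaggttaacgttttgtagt
*Gm5886* (UNDIFF6 and UNDIFF8, chr6:133767527-133767636, minus strand): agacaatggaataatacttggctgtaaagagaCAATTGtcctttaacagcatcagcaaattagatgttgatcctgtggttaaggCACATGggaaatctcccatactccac
*Eif4a3l1* (DIFF2 and UNDIFF8, chr6:136327111-136327229, plus strand): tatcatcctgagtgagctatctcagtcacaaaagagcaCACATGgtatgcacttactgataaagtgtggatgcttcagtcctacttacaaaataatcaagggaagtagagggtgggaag
*Grap2* (DIFF2 and UNDIFF8, chr15:80624268-80624462, plus strand): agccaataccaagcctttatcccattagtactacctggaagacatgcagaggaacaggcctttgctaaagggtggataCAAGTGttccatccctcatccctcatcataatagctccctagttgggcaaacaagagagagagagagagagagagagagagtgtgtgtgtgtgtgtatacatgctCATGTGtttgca
*4933404O12Rik* (DIFF2 and UNDIFF6, chr5:136918484-136918650, plus strand): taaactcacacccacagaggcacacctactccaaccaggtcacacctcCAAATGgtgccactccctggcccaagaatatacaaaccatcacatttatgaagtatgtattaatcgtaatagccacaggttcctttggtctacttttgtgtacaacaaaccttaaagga
*Cabp2* (DIFF1 and DIFF2, chr19:4082009-4082116, plus strand): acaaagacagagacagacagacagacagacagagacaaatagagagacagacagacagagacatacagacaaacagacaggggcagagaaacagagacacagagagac

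The *Cabp2* stretch of 108 bp, upstream of a gene for a calcium-binding protein, was the common stretch of the DIFF lists. All of it was soft-masked, and it is a run of short tandem repeats. Its peak had a fold of 3.25 over 5.5 input tags in DIFF1 and of 36.24 over 0.6 input tags in DIFF2. The *Eif4a3l1* stretch of 119 bp was likewise wholly soft-masked. The *Eif4a3l1* peak ranked 12 among DIFF2 members by score (fold 3.85, 15.7 input tags) and 2 among UNDIFF8 members (fold 2.29, 29.5 input tags). *Gm5886* had 21 soft-masked bases of 110, with folds of 5.15 in UNDIFF6 and 5.75 in UNDIFF8, and a further UNDIFF8 peak 758 bp downstream of its start site (fold 17.25 over 1.4 input tags). *Grap2*, an adaptor of T cell receptor signalling, had 84 soft-masked bases of 195, with folds of 7.25 in DIFF2 and 4.52 in UNDIFF8. The remaining pairs joined a member to a peak just past the limit, at *1700025O08Rik* (958 bp upstream in DIFF1, 1194 bp in DIFF2) and *AI429214* (927 bp upstream in DIFF2, 1016 bp in DIFF1).

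The other genes in 2 lists had peaks at different places around their start sites. *Sp110*, an interferon-induced nuclear body gene, had peaks 425 bp upstream in DIFF1 (fold 2.44, 12.5 input tags) and 927 bp upstream in DIFF2 (fold 2.09, 26.1 input tags). *H2-T3*, a non-classical MHC class I gene, had peaks 641 bp upstream in DIFF2 (fold 4.19) and 91 bp upstream in UNDIFF6 (fold 2.79). *Map2*, a neuronal microtubule-associated protein gene, had peaks 459 bp upstream in DIFF1 (fold 3.06) and 753 bp upstream in UNDIFF8 (fold 7.98). *Otop2*, a proton channel gene, had peaks 209 bp downstream in DIFF1 (fold 4.06) and 888 bp downstream in DIFF2 (fold 3.4). *S100a16*, a calcium-binding S100 gene, had peaks upstream of separate start sites in DIFF1 (233 bp, fold 4.47) and DIFF2 (663 bp, fold 5.19). *Rp1*, a gene of the photoreceptor axoneme, had 2 peaks in DIFF2, far apart at separate start sites. They were at chr1:4361086-4361422 (940 bp upstream, fold 24.64) and chr1:4408639-4408975 (434 bp downstream, fold 3.25). In UNDIFF6 *Rp1* had 1 peak (880 bp downstream, fold 4.67). *Olfr371*, *Gm5570*, *Ccdc110*, *Zfp981*, *Gm35521* and *Gm12169* also had a member in 2 lists with no base in common. Those of *Zfp981* lay at separate start sites.

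**Figure D4:**
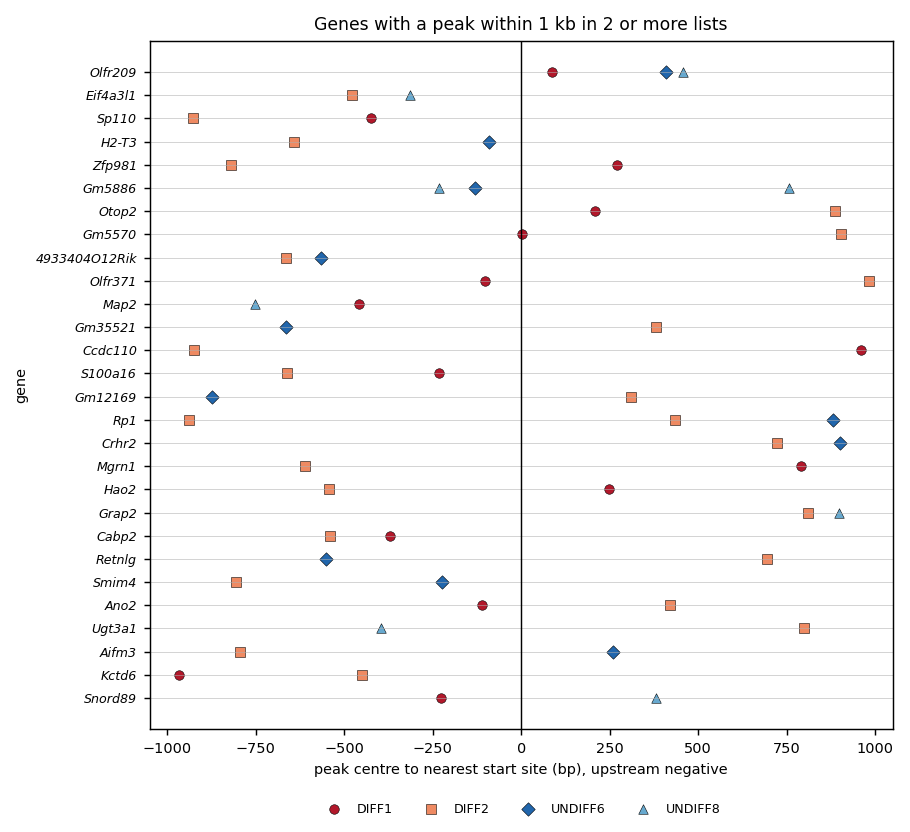
Distance of each member peak's centre from its nearest start site in bp (x axis, upstream negative) for the 28 genes with a member in 2 or more lists (y axis). Symbols are lists, and each peak of a gene is a point. Points of 2 lists seldom coincide, with exceptions such as *Gm5886* and *4933404O12Rik*, where the peaks overlap by 110 and 167 bp.

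The members with the highest scores in DIFF1 lay near the end of chromosome 11. They were *Slc16a3*, the lactate exporter MCT4 (score 59, fold 4.8, 8 input tags), *Sirt7*, an NAD-dependent deacylase (56.5, fold 2.24, 16 input tags), *Aspscr1*, a tether of the glucose transporter GLUT4 (56, fold 4.09, 9 input tags) and *Tspan10*, a tetraspanin (52, fold 3.83, 9 input tags). *Olfr209* and *Sp110* followed with scores of 49.5 and 47.5. The median of the DIFF1 members was a score of 26.5, a fold of 4.35 and 4 input tags. The same end of the chromosome held *Sectm1a* and *Oxld1* in DIFF2 (scores 89.5 and 69, folds 3.15 and 2.52, input tags 35.6 and 35) and *Rab40b*, a small GTPase gene, in UNDIFF6 (score 34, fold 2.17, 15 input tags). In the last 6.08 Mb of the chromosome lay 6 DIFF1 members (3.26% of them, against 0.702% of all DIFF1 peaks and 0.661% of curated genes), 13 in DIFF2 (0.649%, against 0.337% of all DIFF2 peaks), 1 in UNDIFF6 and 0 in UNDIFF8. Their median input tags were 9 in DIFF1 and 19 in DIFF2, against 4 and 6 at the other members. Other peaks of the window also had more input tags than other peaks elsewhere, with medians of 5.5 against 4 in DIFF1 and 12.4 against 4.6 in DIFF2. The window was chosen after these values were seen, and the part of input depth in the scores was not tested.

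Most of the other members with the highest scores also had many input tags. In DIFF2 they were *Trpm8*, the cold-sensing ion channel (score 92, fold 2.53, 44.5 input tags), *Gm11681* (73, fold 2.49, 33.5 input tags), *Gm9732* (68.5, fold 2.83, 29 input tags) and *Gm2619* (68, fold 6.24, 12.8 input tags). In UNDIFF6 they were *Ifi202b*, an interferon-induced gene (40, fold 2.19, 17 input tags), *Mir7216* (38, fold 2.22, 15.5 input tags), *Gm5886*, *H2-T3* and *Cd34*, a surface marker of progenitor and endothelial cells (33.5, fold 3.45, 9 input tags). In UNDIFF8 they were *4931408C20Rik* (135.5, fold 4.06, 33.3 input tags), *Eif4a3l1*, *Mir344h-1* (55, fold 3.49, 15.5 input tags), *Gm8126* (46.5, fold 5.17, 8.7 input tags), *1700001F09Rik* (41.5, fold 5.24, 7.7 input tags) and *Esp34*, of a family of exocrine gland peptides (36, fold 5.57, 6.3 input tags). Input tags were at least 2 times the median of the list's other peaks at all 6 of the highest members in DIFF1 and in DIFF2, and at 3 of 6 in UNDIFF6 and in UNDIFF8. Over all members this held for 5.43% in DIFF1, 21.9% in DIFF2, 3.45% in UNDIFF6 and 10.5% in UNDIFF8, against 2.27%, 10.6%, 1.85% and 5.72% of other peaks. The 6 of each list were chosen by score, itself a tag count, and were not set beside the highest-scoring other peaks.

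As a whole, members were not stronger than the other peaks. The median fold over input was 4.35 at members and 4.27 at other peaks in DIFF1, 4.04 and 5.16 in DIFF2, 3.38 and 3.41 in UNDIFF6, and 4.27 and 4.14 in UNDIFF8. The mean difference was -0.07 on the log2 scale (exact sign-flip permutation test over 4 lists, two-sided, p = 0.875), and without DIFF2 it was 0.02. Median input tags were equal at members and other peaks in DIFF1 (4), UNDIFF6 (7) and UNDIFF8 (6.3), and were 6.2 at members against 4.6 in DIFF2. The mean difference was 0.11 on the log2 scale (exact sign-flip permutation test, p = 1), all of it from DIFF2. Of the DIFF2 members 10.2% had a fold of at least 10, against 19.5% of its other peaks, whereas in DIFF1 it was 12.5% against 7.53%. The highest folds, up to 36.45 in DIFF1 and 147.39 in DIFF2, stood on input tags as low as 0.5 and 0.2.

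**Figure D5:**
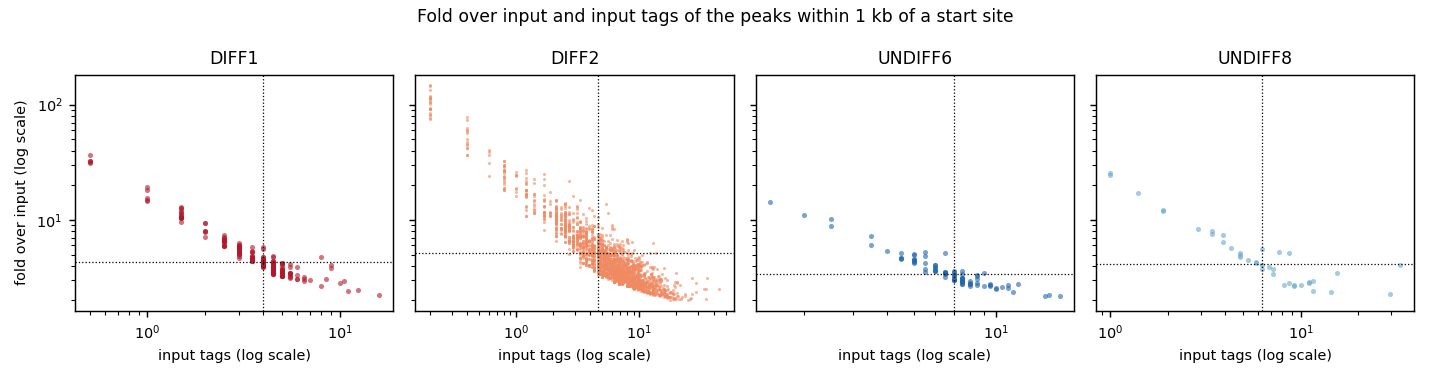
Fold over input (y axis, log scale) against input tags (x axis, log scale, its range differs between panels) of the member peaks of each list, a point for each peak. Dotted lines are the medians of the list's other peaks. Members fall along a band on which the fold is high where input tags are few, and the medians of DIFF1 members (fold 4.35, 4 input tags) lie close to the crossing of the lines.

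Core clock genes had members in DIFF2 alone, and these were 2 of 20 genes (10%, against 7.43% of all curated genes in DIFF2). *Arntl*, which encodes BMAL1, had a peak 343 bp downstream of its nearest start site, in an intron, with 7.23 normalized tags, a fold of 4.00 and 7.2 input tags. *Npas2*, whose product can take the place of CLOCK, had a peak 531 bp upstream, outside curated transcripts, with 10.6 normalized tags, a fold of 3.42 and 11 input tags. Neither peak held CACGTG, and the *Npas2* peak held no CANNTG. Both were GC-rich, at 77.4% and 73.9%, and lay outside repeats, unlike 72.1% of the DIFF2 members. The middle of the *Arntl* peak is shown with GGGCGG in capitals.
*Arntl* (DIFF2, chr7:113207794-113207914, plus strand): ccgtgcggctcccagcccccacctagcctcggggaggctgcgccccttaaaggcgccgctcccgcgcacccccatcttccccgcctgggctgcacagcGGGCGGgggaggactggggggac

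*Per1*, a clock repressor gene whose promoter the study used as its ChIP-qPCR check, had no member in any list. The study reports that check as positive, with the promoter enriched over a mock precipitation relative to a control exon. The nearest peak to a *Per1* start site lay 4800 bp away, in DIFF2. For *Per2* the nearest peak lay 2001 bp away, also in DIFF2. Among 20 clock output genes 1 had a member, in DIFF2 (5%, against 7.43% of all curated genes in that list). It was *Cdkn1a*, the inhibitor of cyclin-dependent kinases p21, with a peak 712 bp upstream (fold 2.96, soft-masked centre). *Gys2*, a liver glycogen synthase gene, had its nearest peak 1066 bp away, just past the limit. Lists hold only regions past the caller's thresholds, so a gene with no peak cannot be called unbound.

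Milk and prolactin genes also had members in DIFF2 alone, which held members at 7.43% of all curated genes, against 0.695% in DIFF1, 0.332% in UNDIFF6 and 0.141% in UNDIFF8. Groups of this size can therefore show little outside DIFF2. Of 17 milk protein genes and 24 genes of mammary transcription factors, 0 had a member. Of 35 milk fat genes 1 had, *Plin5*, which coats lipid droplets, 315 bp upstream (fold 3.2). These were 0%, 0% and 2.86% of the groups, against 8.48% of all curated genes in any list. Of 25 prolactin signalling genes 4 had. They were *Socs2*, a feedback inhibitor of growth hormone and prolactin receptors (281 bp upstream, fold 3.06), *Ghr*, the growth hormone receptor (650 bp upstream, fold 4.16), *Mapk14*, the kinase p38 alpha (272 bp downstream, fold 2.04, 21.1 input tags) and *Igf1r*, the IGF1 receptor (373 bp downstream, fold 2.21). This was 16% of the group, against 7.43% of all genes in DIFF2. It rested on 4 genes of 1 list, and the difference was not tested. The prolactin receptor gene *Prlr*, *Jak2* and the *Stat5* genes were not among these 4, so the share describes a broader group of signalling genes. Among the rest, DIFF2 held 3 of 18 serotonin genes (16.7%), 2 of 16 housekeeping genes (12.5%) and 1 of 20 antioxidant genes (5%).

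Olfactory and vomeronasal receptor genes, which serve smell and pheromone sensing, were 14 of 182 genes in DIFF1 (7.69%, interval 4.64 to 12.5), 69 of 1944 in DIFF2 (3.55%, 2.81 to 4.47), 4 of 87 in UNDIFF6 (4.60%, 1.80 to 11.2) and 5 of 37 in UNDIFF8 (13.5%, 5.91 to 27.98). They made up 5.66% of all curated genes, so the DIFF2 interval lay below that share and the UNDIFF8 interval above it. The DIFF1 receptor genes were *Olfr1414*, *Olfr427*, *Olfr789*, *Olfr172*, *Olfr197*, *Olfr209*, *Olfr1472*, *Olfr1491*, *Olfr156*, *Olfr457*, *Olfr371*, *Vmn1r231*, *Vmn1r236* and *Vmn1r18*. Their folds ranged between 2.97 at *Olfr209* and 5.74 at *Vmn1r231*. In UNDIFF6 they were *Olfr209*, *Olfr102*, *Olfr1002* (fold 14.34 over 1.5 input tags) and *Olfr47*, and in UNDIFF8 *Olfr209*, *Olfr450*, *Vmn1r15*, *Vmn1r30* and *Vmn1r54*. The UNDIFF8 share rested on these 5 genes, and its lower bound of 5.91% was close to 5.66%. All of them but *Olfr209* lay on chromosome 6, which held 23.7% of UNDIFF8 members and 14.8% of all UNDIFF8 peaks. The interval treats the genes as independent.

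MicroRNA genes had members at 96 of 1195 start sites of their precursors in any list, or 8.03%, against 8.48% of all curated genes. Among them were *Mir486* (881 bp upstream, fold 3.76) and *Mir346* (226 bp downstream, fold 6.07) in DIFF1 and *Mir29a* (523 bp downstream, fold 2.37) in UNDIFF6. The other microRNA genes of DIFF1 were *Mir6896*, *Mir1928*, *Mir6949*, *Mir759*, *Mir6961*, *Mir5106*, *Mir7034*, *Mir3106* and *Mir710*, with folds of 3.25 at *Mir5106* to 32.47 at *Mir6961* over 0.5 input tags. UNDIFF6 also had *Mir1946a*, *Mir7216*, *Mir5709* and *Mir5116*, and UNDIFF8 had *Mir7094-2* and *Mir344h-1*. Zinc finger genes of the *Zfp* series had 36 of 403 (8.93%), and solute carriers 33 of 382 (8.64%), both near 8.48%. The zinc finger genes were *Zfp616* (fold 14.58 over 1 input tag), *Zfp40*, *Zfp248*, *Zfp981* and *Zfp853* in DIFF1, *Zfp759* and *Zfp869* in UNDIFF6 and *Zfp978* in UNDIFF8, beside those of DIFF2. The solute carriers of DIFF1 were *Slc16a3*, the sodium-proton exchanger *Slc9a2* (fold 4.31), the nucleotide sugar transporter *Slc35a3* (fold 3.83) and the ileal bile acid transporter *Slc10a2* (fold 5.96). Defensin genes, which encode antimicrobial peptides, had 9 of 74 (12.2%), with *Defb37*, *Defb8* and *Defb1* in DIFF1 (folds 3.89, 4.2 and 3.86). Genes of cytosolic ribosomal proteins, some of them retrogenes and pseudogenes, had 13 of 105, all in DIFF2, or 12.4%. For *Rpl26*, *Rpl23a*, *Rps24*, *Rpl24* and *Rpl5* the peak was upstream and its centre soft-masked, with folds of 2.59 at *Rpl24* to 6.62 at *Rps24*. *Snord89* had a member 226 bp upstream in DIFF1 (fold 6.63) and 380 bp downstream in UNDIFF8 (fold 4.31). Histone genes had 1 of 67 (1.49%) and genes of keratins and keratin-associated proteins 1 of 54 (1.85%), against 8.48% of all curated genes. Groups of this size allow few members, and these differences were not tested. The 27 kallikrein, 22 major urinary protein and 34 clustered protocadherin genes had 0.

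The promoters of the genes with a member were poorer in GC in each list. Genes with a promoter sequence were 140 of 182 in DIFF1, 1424 of 1944 in DIFF2, 65 of 87 in UNDIFF6 and 24 of 37 in UNDIFF8. The remaining genes are not in the values of this paragraph. Over the RefSeq promoters, from 250 bp before to 50 bp after the start, mean GC content was 51.8% for genes with a DIFF1 member and 55.8% for genes without, 54.9% and 55.8% in DIFF2, 54.2% and 55.7% in UNDIFF6, and 49.8% and 55.7% in UNDIFF8. The genes with a member were lower in 4 of 4 lists, with a mean difference of -3.08 ± 2.31 percentage points (SD, n = 4 lists, p = 0.13 by the exact sign-flip permutation test, the smallest it can give). With all RefSeq transcripts as start sites the mean difference was -1.38 ± 2.13 percentage points (exact sign-flip permutation test, p = 0.375), and with genes of predicted transcripts in the reference group, an alternative chosen after seeing the data, -0.895 ± 2.36 (exact sign-flip permutation test, p = 0.625). In both the SD over lists was larger than the mean. Outside soft-masked sequence the difference in DIFF2 was 2.63 percentage points, and so of the opposite sign. In the quintile of genes with the most GC-rich promoters 0.282% had a DIFF1 member and 5.40% a DIFF2 member. In the quintile with the least GC they were 0.896% and 7.14%, and in the next quintile 1.13% and 9.22%. In UNDIFF6 the share was 0.256% in the most GC-rich quintile and 0.435%, 0.282%, 0.282% and 0.410% in the others from the least GC upwards, with no gradient. In UNDIFF8 it was 0.0512% in the most GC-rich quintile (2 genes) and 0.256% in the one with the least (10 genes).

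Members and all peaks were both unevenly spread over chromosomes, but not always in the same way. Chromosome 6 held 13.6% of members in DIFF1, 7.84% in DIFF2, 11.5% in UNDIFF6 and 23.7% in UNDIFF8 (9 of 38), against 5.22% of curated genes. Of all peaks of these lists 11.4%, 7.84%, 13.6% and 14.8% lay on chromosome 6. Chromosome 8, with 4.85% of genes, held 14.7% of members in DIFF1, 4.90% in DIFF2, 6.90% in UNDIFF6 and 2.63% in UNDIFF8 (1 of 38), against 11.2%, 6.25%, 14.4% and 15.4% of all peaks. Chromosome 7, with 8.82% of genes, held 2.17% of members in DIFF1, 5.69% in DIFF2, 1.15% in UNDIFF6 and 5.26% in UNDIFF8 (2 of 38), against 1.63%, 3.87%, 0.811% and 0.968% of all peaks. The members were thus above all peaks there in each list, and below the share of genes. On chromosome 15 lay 0.543% of members in DIFF1 (1 of 184), 4.60% in DIFF2, 5.75% in UNDIFF6 and 10.5% in UNDIFF8. Of all peaks 7.65%, 5.62%, 11.2% and 13.4% lay on that chromosome.

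Between 900 and 1000 bp lay 18 peaks in DIFF1, 307 in DIFF2, 11 in UNDIFF6 and 2 in UNDIFF8. Between 1000 and 1100 bp lay 26, 287, 17 and 3. *Zfp248*, 986 bp upstream in DIFF1, had a fold of 3.9, and *Mettl21c*, 1005 bp upstream, had 4.83. *Gimap3*, 1000 bp upstream in DIFF2, had a fold of 5.64, and *Celf2*, 1001 bp downstream, had 4.43. *Bcl6*, a transcriptional repressor gene 981 bp upstream in UNDIFF6, had a fold of 2.75, and *Krtap26-1*, 1001 bp downstream, had 4.57. *Micu3*, 987 bp downstream in UNDIFF8, had a fold of 4.76, and *Gm7762*, 1024 bp upstream, had 3.16.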

How the data were processed

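BMAL1 ChIP-seq was done in 2 DIFF and 2 UNDIFF cultures of HC11 cells. The 4 input samples were not analysed here. Per the labels and the study, read quality was checked by the authors in FastQC 0.11.7 and reads were trimmed (Fastx toolkit) and placed on GRCm38 by Bowtie2 2.2.9. HOMER 4.10 called peaks in each sample apart, at a fold over input of at least 2 and an FDR of 0.01, with PCR duplicates filtered. The deposited lists give tags in ChIP and input and a normalized tag count, scaled by the caller to a common library size, as signal. They also hold a fraction (HOMER's focus ratio), its score, folds over input and local tags as ratios, and an unadjusted p-value as the authors' caller gave it. Per the file headers, ChIP tags were scaled to the input in DIFF1 and UNDIFF6 and input tags to the ChIP in DIFF2 and UNDIFF8. The tag total of a list is therefore that of the smaller library of its pair. Fold and score were compared within a list only, since each was called apart.

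Peak centres were set beside 45756 curated RefSeq transcripts (annotation release 108.20200622), whose chromosomes fit the lists. A gene tie went to the first name in the alphabet. Sequences came from RefSeq's GRCm38 genome and promoters. Functions were tested on simulated data. The list was the unit of each test: DIFF against UNDIFF by an exact permutation test, and members against other peaks by an exact sign-flip permutation test over lists, both two-sided. Nothing in the labels says that the cultures are pairs. Alternatives were the distance limit, the start sites, the fold and score minimums, repeats, list length, peak position, the overlap and leaving out each list.

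Members and gene lists were chosen with earlier results of these data known. Named are the genes in 3 lists, the first 15 of those in 2 by best score rank, the 6 highest scores per list, the members of the gene lists in the 3 smaller lists and of the clock, milk and prolactin lists, *Per1*, and members with CACGTG in the smaller lists plus the first 10 of DIFF2. *Grap2*, *Cabp2*, *1700025O08Rik*, *AI429214*, *Per2*, *Gys2*, the ribosomal protein genes and the genes at the limit were also named, some after their values were seen. A few members that the rule takes are not reported here. Computations ran in Python 3.11.15 (pysam 0.24.0, scipy 1.17.1, pandas 2.3.3, numpy 2.4.6), and plots in matplotlib 3.10.9.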

Additional observations from a re-analysis of the deposited data

Results flagged for a closer look

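TATAAA differed between members and other peaks in opposite directions in the cultures of the 2 states. It was in 10.9% of members and 11.5% of other peaks in DIFF1 and in 16.1% and 27.2% in DIFF2, lower at members with differences of -0.635 and -11.04 percentage points. It was in 11.5% and 11.5% in UNDIFF6 and in 26.3% and 15.05% in UNDIFF8, higher at members by 0.0316 and 11.3 percentage points. The mean difference of the DIFF lists minus that of the UNDIFF lists was -11.5 percentage points. This difference between the states was not tested. It rested on DIFF2 and UNDIFF8, and in UNDIFF8 on 10 members of 38 (interval 14.97 to 42.0%). Windows of the same width at start sites held TATAAA in 10.7%, 16.0%, 9.82% and 11.4%.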

How the results depend on the processing

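Of 144 values under an alternative, 115 kept their direction with no call changed or, for values with no test, stayed within the spread of the lists or 1.5 times the count. Some of these still differed much in size. None of the exact tests could reach 0.05, so none of them bears on stability. The ratio of members to genome share was under 1 in each list under each setting, the highest being 0.859 in DIFF1 with all RefSeq transcripts. The mean differences in soft-masked share and in promoter GC were negative in each setting. By list, the promoter GC difference turned positive in some settings. In DIFF2 it was 2.63 percentage points outside soft-masked sequence, 0.871 at 500 bp and 0.0744 at a score of at least 24. With predicted genes in the reference group it was 1.35 in DIFF2 and 0.652 in UNDIFF6. With all RefSeq transcripts it was 0.487 in UNDIFF6. With all RefSeq transcripts promoter GC differed by -1.38 percentage points on average and at a fold of at least 4 by -5.49. With predicted genes in the reference group, an alternative chosen after seeing the data, promoter GC differed by -0.895 percentage points.

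The mean ratio to the genome share was 0.545, and it was 0.715 at 2000 bp and 0.702 with all RefSeq transcripts. The mean upstream share of 56.0% was 50.6% outside soft-masked sequence. The CACGTG difference reversed to -0.269 percentage points at a fold of at least 4, and was 0.0372 at 2000 bp, 0.211 at 500 bp and 0.323 with equal lists, against 0.944. The DIFF minus UNDIFF share was between 0.0880 (500 bp) and 0.702 percentage points (outside soft-masked sequence), against 0.199. The 28 genes in 2 or more lists became 46 when any base of the peak counted, 10 outside soft-masked sequence, 203 at 2000 bp, 5 at 500 bp, 7 with 5475 peaks in each list, 9 at a fold of at least 4, 13 at a score of at least 24 and 126 with all RefSeq transcripts. The 14 overlapping members became 7 outside soft-masked sequence, 52 at 2000 bp, 7 at 500 bp, 6 with equal lists, 6 at a fold of at least 4, 9 at a score of at least 24, 58 with all RefSeq transcripts and 9 with coding transcripts. The cause was not tested, except that the wider limit and the larger set of start sites take more peaks.

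Leaving out each list in turn, genes in 2 or more lists ranged from 4 (without DIFF2) to 22 and overlapping members from 4 (without DIFF2) to 10. The DIFF minus UNDIFF share ranged from -0.119 percentage points (without UNDIFF8) to 0.518. The log2 fold difference ranged from -0.11 to 0.0195 (without DIFF2), and the log2 input difference from 0 (without DIFF2) to 0.14. No paired analysis was possible because the DIFF and UNDIFF lists share no replicate number and the inputs were not analysed here. With 38 to 184 members in the 3 smaller lists, counting error alone spans several percentage points of a share.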
